A study of Mus musculus with 8 samples.

Results

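The genes described here are 10 UDP-glucuronosyltransferases of mouse liver, taken from a list of names and not by any measured value: Ugt1a1, Ugt1a6a, Ugt1a7c, Ugt1a9, Ugt2a3, Ugt2b1, Ugt2b5, Ugt2b34, Ugt2b35 and Ugt2b36. They are 10 of 22 annotated Ugt genes among the 55401 genes in the deposited tables. All 10 passed the filter on low counts, and no library held fewer than 45 counts of any of them. The study sequenced total RNA from whole liver as 8 libraries of 2 groups, in C57BL/6J mice. The shTbl1xr1 group (n = 4) had received a short hairpin RNA against Tbl1xr1, and the shNC group (n = 4) a control hairpin. Both hairpins were carried by an adeno-associated virus aimed at hepatocytes. In both groups surgery to remove part of the liver (partial hepatectomy) followed the virus by 4 weeks, and the remaining liver was sampled on day 2 after it. The labels used here state neither the age nor the sex of the mice, nor whether replicates are different animals. The p-values thus reflect variation between these libraries, which may be technical.

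UDP-glucuronosyltransferases sit in the membrane of the endoplasmic reticulum and join glucuronic acid, taken from UDP-glucuronic acid, to small lipophilic molecules such as bilirubin, steroids, bile acids, phenols and many drugs. The conjugates are more soluble in water and leave the hepatocyte for bile or blood. Hepatocytes are a main site of this chemistry, and loss of the human enzyme UGT1A1 raises unconjugated bilirubin, as in the Crigler-Najjar syndromes. The Ugt1a genes are alternative starts of 1 locus: each has its own first coding exon, which sets what the enzyme binds, spliced to a set of common exons. The Ugt2b and Ugt2a3 genes are separate genes that lie side by side.

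In the GENCODE annotation of GRCm38, the 4 listed Ugt1a genes lie on the plus strand of chromosome 1. Ugt1a9 spans chr1:88070800-88218997, Ugt1a7c spans chr1:88095062-88220002, Ugt1a6a spans chr1:88134809-88218997 and Ugt1a1 spans chr1:88211959-88218997. The first 3 common exons, of 132, 88 and 220 bases, are identical in 9 of 9 annotated Ugt1a genes, and the last common exon starts at the same base, 88218127. The end of that last exon is at 88220002 in Ugt1a7c and by 88219004 in the other eight. Over the common exons up to 88218997 the annotated letters do not tell the genes apart, whereas a gene's own exon and its junction with the first common exon can. That junction is shown as 30 bases of the gene's own exon in lower case, ending at the splice site, and 30 bases of the common exon, chr1:88215044-88215073, in capitals, read from the GENCODE transcripts on the plus strand of GRCm38. Ugt1a6b, which is not on the list, is included because it has the same 60 letters as Ugt1a6a.
Ugt1a1 (own exon at chr1:88212842-88212871): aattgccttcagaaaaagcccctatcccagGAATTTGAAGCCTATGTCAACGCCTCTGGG
Ugt1a6a (own exon at chr1:88139302-88139331): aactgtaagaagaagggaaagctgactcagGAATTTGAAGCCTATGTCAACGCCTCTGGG
Ugt1a6b (own exon at chr1:88107770-88107799): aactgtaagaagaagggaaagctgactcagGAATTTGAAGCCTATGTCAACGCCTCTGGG
Ugt1a7c (own exon at chr1:88095949-88095978): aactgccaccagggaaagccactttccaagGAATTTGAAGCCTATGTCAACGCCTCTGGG
Ugt1a9 (own exon at chr1:88071649-88071678): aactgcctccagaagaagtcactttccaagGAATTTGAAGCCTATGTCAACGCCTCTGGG

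How far each gene could be told apart was measured in 100-base windows of its main transcript. The value is the share of windows that also occur in a transcript of another gene. The main transcript was the coding one, of the basic and consensus coding (CCDS) sets where available, that starts nearest the gene's start. The share was 100% for Ugt1a6a, 58.5% for Ugt1a9, 57.2% for Ugt1a1 and 39.5% for Ugt1a7c. All windows of Ugt1a6a occur in a transcript annotated under Ugt1a7c, which joins an exon of Ugt1a6b, chr1:88103252-88103378, to the coding first exon of Ugt1a6a, chr1:88138473-88139331. Values of the 4 Ugt1a genes thus depend on how the authors' estimate divided shared fragments, and the Ugt1a7c value can hold fragments that start at either of these exons. The 6 remaining genes lie on chromosome 5, where Ugt2b35, at chr5:87000860-87013275, is on the plus strand. The others are on the minus strand: Ugt2b34 at chr5:86889767-86906937, Ugt2b1 at chr5:86916638-86926530, Ugt2b36 at chr5:87065927-87092555, Ugt2b5 at chr5:87124960-87140318 and Ugt2a3 at chr5:87324972-87337195. Ugt2b5 shared 24.7% of its windows, all of them with Ugt2b38, Ugt2a3 shared 0.595% and Ugt2b34 0.407%. Ugt2b1, Ugt2b35 and Ugt2b36 shared 0, while shorter or mismatched sharing was not tested.

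The upstream sequences of Ugt1a1, Ugt1a9, Ugt2b5 and Ugt2b36 are shown because they carry the motif matches described next and because the Ugt2b pair shares a stretch. Each is the 250 bases before the RefSeq start on GRCm38.p6, 5′ to 3′ on the gene's strand, with matches to the searched motifs in capitals.
Ugt1a1 (chr1:88211709-88211958, plus strand): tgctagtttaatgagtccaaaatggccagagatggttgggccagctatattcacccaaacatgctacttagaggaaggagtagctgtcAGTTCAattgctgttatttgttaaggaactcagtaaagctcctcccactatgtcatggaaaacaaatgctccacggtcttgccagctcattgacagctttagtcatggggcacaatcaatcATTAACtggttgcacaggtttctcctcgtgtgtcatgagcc
Ugt1a9 (chr1:88070529-88070778, plus strand): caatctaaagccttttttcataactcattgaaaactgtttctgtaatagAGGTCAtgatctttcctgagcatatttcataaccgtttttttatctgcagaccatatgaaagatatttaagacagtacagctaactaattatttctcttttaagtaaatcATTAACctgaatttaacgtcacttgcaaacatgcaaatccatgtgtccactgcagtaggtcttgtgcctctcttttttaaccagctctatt
Ugt2b5 (chr5:87140341-87140590, minus strand): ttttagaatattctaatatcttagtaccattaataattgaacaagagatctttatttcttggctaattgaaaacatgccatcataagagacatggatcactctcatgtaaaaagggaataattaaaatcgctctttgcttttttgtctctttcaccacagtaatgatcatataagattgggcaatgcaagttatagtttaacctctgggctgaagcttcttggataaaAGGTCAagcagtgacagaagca
Ugt2b36 (chr5:87092556-87092805, minus strand): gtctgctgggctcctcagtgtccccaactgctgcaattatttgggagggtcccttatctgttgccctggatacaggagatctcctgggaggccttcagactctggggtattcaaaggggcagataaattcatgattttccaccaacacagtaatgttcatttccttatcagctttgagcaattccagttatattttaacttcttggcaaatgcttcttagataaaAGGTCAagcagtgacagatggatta

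All 10 genes had a RefSeq window, from 250 bases before to 50 bases after the start. Of 32851 such windows, 7.1% held GTTAAT on either strand, a short motif of the liver factor HNF1, against 4 of the 10 listed genes (Ugt1a1, Ugt1a6a, Ugt1a9 and Ugt2a3). In Ugt1a1 the match begins at position -41 from the start and in Ugt1a9 at -91, both on the opposite strand, so that they read ATTAAC above. AGGTCA, a nuclear receptor motif, was in 16.3% of all windows and in 5 of the 10 (Ugt1a7c, Ugt1a9, Ugt2b5, Ugt2b35 and Ugt2b36). AGTTCA, another such motif, was in 14% of all windows and in Ugt1a1 and Ugt2b1. The core of the Ah receptor element, GCGTG (32.4% of all windows), and that of the antioxidant response element, TGACNNNGC (12.4%), were in 0 of the 10 windows. The HNF4 element CAAAGTCCA (0.475%) and the palindromic HNF1 element (0.00913%), which contains GTTAAT, were also in 0 of 10. The longest run shared by 2 of the 10 upstream sequences was the 24 bases gataaaAGGTCAagcagtgacaga, which begins at -31 in Ugt2b36 and at -28 in Ugt2b5. No other pair of the 10 shared more than 14 bases. The stretch is not particular to this pair, as the unlisted Ugt2b37 holds the same 24 bases upstream. The unlisted Ugt2b38 holds the greater part of them. The GC content of the 10 windows was 31.67% to 51.67%, below the median of 52.7% over all windows, and its part in the counts of AT-rich and GC-rich motifs was not tested. These matches describe letters in a window, not bound sites.

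Levels are CPM, expected counts scaled to library totals, after correction of the libraries by the TMM method, unless TPM, the level per transcript length, is named. Tbl1xr1, a subunit of the NCoR and SMRT corepressor complexes and the target of the hairpin, had 2.38, 2.07, 9.24 and 15.9 CPM in shTbl1xr1 1 to 4, against 27.2, 35.9, 33.7 and 34.6 CPM in shNC 1 to 4. The groups did not overlap (two-sided exact permutation p = 0.0286, the smallest that 4 against 4 allows), while the edgeR log2 fold change of -2.07 (SE 0.54) had an adjusted p of 0.290. The libraries shTbl1xr1 1 and 2 stood apart: they held 10895508 and 10728583 counts, against 26976205 and 36720879 in shTbl1xr1 3 and 4 and 25811763 to 27537235 in shNC. Their TMM factors were 0.734 and 0.675, against 1.081 to 1.165 in shNC, and 11.25% and 14.8% of their counts were mitochondrial, against 4.96% to 7.34% in shNC. Summed markers of hepatocytes were 55097 to 92380 CPM in shTbl1xr1, highest in shTbl1xr1 1 and 2, and 56777 to 75596 CPM in shNC. The single markers were mixed. In shTbl1xr1 1 and 2, Ttr, Apoa1, Serpina1a, Hgd and Fah lay above every shNC library, and Tat and Cps1 below. Alb, the largest part of the sum, lay within the shNC range there. Across all 13908 genes tested, edgeR's quasi-likelihood test called 6 higher in shTbl1xr1 (0.0431%) and 1 lower (0.00719%) at an adjusted p under 0.05.

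None of the 10 listed genes passed this test: 0 were called higher or lower, against 0.0503% of all genes called in either direction. DESeq2 also called 0 of the 10, while it called 1.59% of all genes higher and 0.262% lower. Limma-voom called 0 of the 10, and 0.036% of all genes higher and 0% lower. Their adjusted p-values in edgeR's test ran between 0.343 and 0.897, and 2 of the 10, Ugt1a7c and Ugt2b35, had an unadjusted p under 0.05, as did 7.9% of all genes in the higher direction. The log2 fold changes were positive for 9 of 10 genes, against 50.6% of all genes. Their median was 0.58, against 0.01 over all genes. Hepatocyte markers were also mostly higher, with 6 of 8 positive and a median of 0.51. Medians of the other cell type marker lists ran from -0.67 (lymphocytes) to 0.57 (cholangiocytes). Whether the Ugt shift is one of hepatocyte genes at large was not tested. Libraries scaled by their size alone moved the median of all genes to -0.27. They left 7 of the 10 listed genes positive, against 23.5% of all genes. Relative to the median of all genes, 9 of 10 stood higher under either scaling, and the median of the 10 stood 0.57 above it with TMM and 0.44 above it with size alone.

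**Figure D1:**
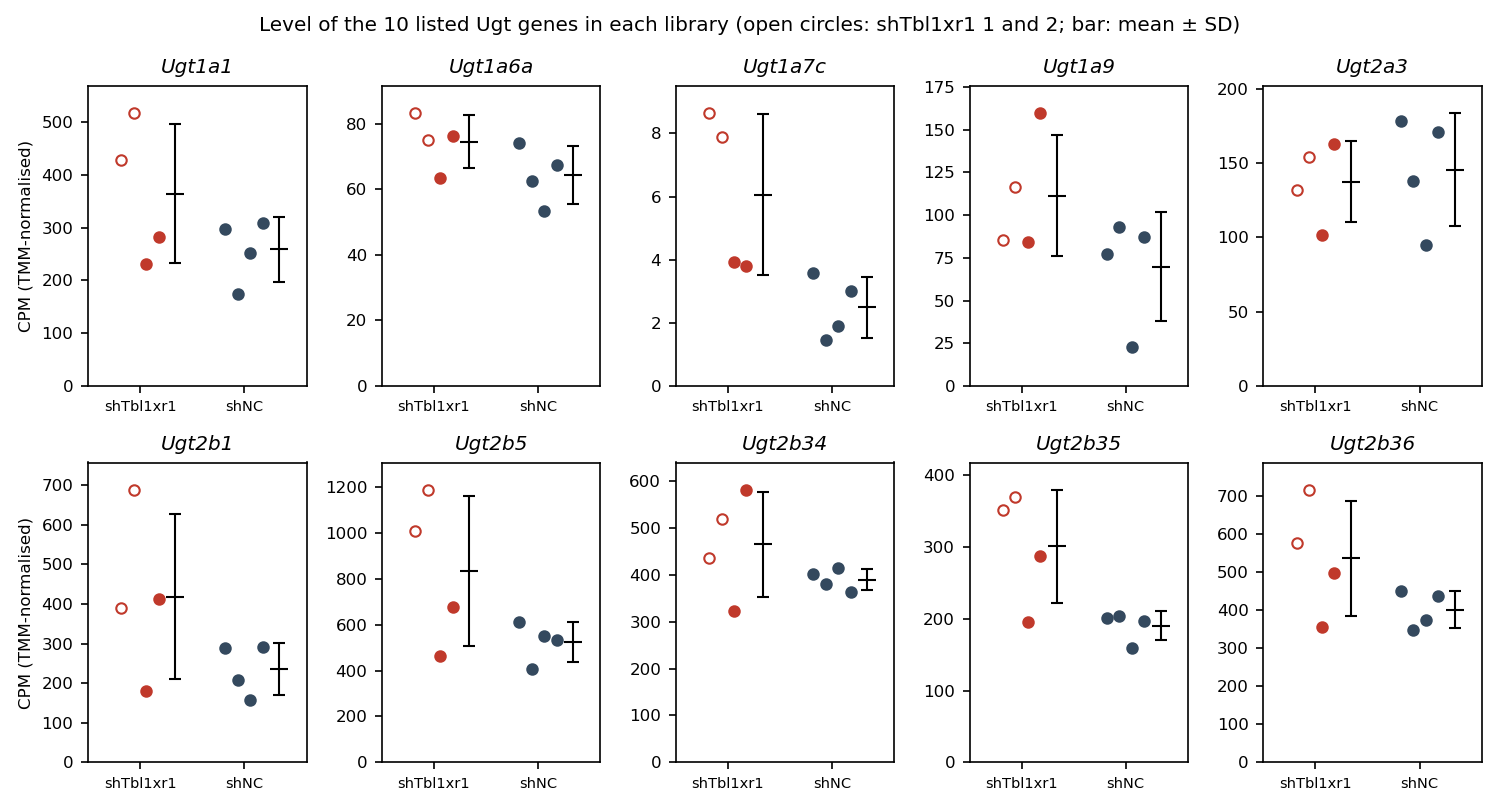
Level of each listed gene in every library, in TMM-scaled CPM, with shTbl1xr1 on the left and shNC on the right of each panel. Open circles are shTbl1xr1 1 and 2, and the bars are means ± SD (n = 4). The groups overlap in 9 of 10 panels, and only for Ugt1a7c do all 4 shTbl1xr1 libraries lie above every shNC library.

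Ugt1a1, which conjugates bilirubin, had 428, 517, 230 and 282 CPM in shTbl1xr1 1 to 4, against 298, 175, 252 and 309 CPM in shNC 1 to 4. The first 2 shTbl1xr1 libraries lay above every shNC library, and the other two lay within the shNC range. Its log2 fold change was 0.49 (SE 0.29, 95% interval -0.17 to 1.15, edgeR adjusted p = 0.494), and without shTbl1xr1 1 and 2 it was -0.02 (SE 0.24).

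Ugt1a6a, whose enzyme conjugates small planar phenols, had 83.2, 75.0, 63.6 and 76.2 CPM in shTbl1xr1 1 to 4, against 74.3, 62.7, 53.3 and 67.5 CPM in shNC 1 to 4. The libraries shTbl1xr1 1, 2 and 4 lay above the shNC range, and shTbl1xr1 3 within it. Its log2 fold change was 0.21 (SE 0.16, 95% interval -0.14 to 0.56, edgeR adjusted p = 0.570). It was 0.12 (SE 0.16) without shTbl1xr1 1 and 2 and turned to -0.10 with libraries scaled by size alone.

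Ugt1a7c belongs to the group of first exons whose human relative UGT1A7 conjugates phenolic metabolites of polycyclic hydrocarbons. It was the lowest of the 10 per length and had 8.64, 7.87, 3.93 and 3.79 CPM in shTbl1xr1 1 to 4, against 3.59, 1.47, 1.89 and 3.00 CPM in shNC 1 to 4. This was the 1 listed gene whose groups did not overlap in CPM, a pattern that 3.88% of all genes showed in this direction and 3.37% in the other. In edgeR the log2 fold change was 1.25 (SE 0.39, 95% interval 0.38 to 2.12, unadjusted p = 0.00951), and its edgeR adjusted p was 0.343. Without shTbl1xr1 1 and 2 it was 0.63 (SE 0.35).

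Per length, in TPM without TMM correction, the separation of Ugt1a7c was not seen. It had 1.80, 1.67, 2.03 and 1.96 TPM in shTbl1xr1 1 to 4, against 1.89, 0.77, 1.33 and 2.16 TPM in shNC 1 to 4, so the groups overlapped. The authors' estimate of the mean transcript length of this gene was 3292, 2876, 2847 and 2813 bases in shTbl1xr1 1 to 4, against 2457, 2687, 2206 and 2075 bases in shNC 1 to 4. All 4 shTbl1xr1 libraries were longer than every shNC library, as in 1.49% of 12050 genes with several transcripts. The CPM of Ugt1a7c thus moved together with the mix of transcripts assigned to it, and the part of either in the other was not tested.

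Ugt1a9, whose human relative UGT1A9 conjugates bulky phenols, had 85.6, 116, 84.4 and 160 CPM in shTbl1xr1 1 to 4, against 77.0, 92.8, 22.9 and 86.9 CPM in shNC 1 to 4. The library shNC 3 was the low one, and the remaining libraries overlapped. The fold change was, on the log2 scale, 0.67 (SE 0.40, 95% interval -0.22 to 1.57, edgeR adjusted p = 0.490), and 0.38 (SE 0.26) without shNC 3. It was the 1 listed gene whose log2 difference from the shNC mean was larger in shTbl1xr1 3 and 4 (0.92) than in shTbl1xr1 1 and 2 (0.70).

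The sum over the 9 annotated Ugt1a genes does not depend on how shared exons were divided among them. It was 749, 905, 461 and 611 CPM in shTbl1xr1 1 to 4, a mean of 681 ± 190 CPM (SD, n = 4), against 548, 413, 407 and 550 CPM in shNC 1 to 4, a mean of 480 ± 80.4 CPM (SD, n = 4). The groups overlapped through shTbl1xr1 3, and the log2 fold change of the sum was 0.51 (SE 0.25, 95% interval -0.05 to 1.06), or 0.16 (SE 0.20) without shTbl1xr1 1 and 2.

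Ugt1a1 made up 53.0% ± 5.61 of the summed Ugt1a TPM in shTbl1xr1 and 53.9% ± 8.25 in shNC (SD, n = 4 each). Ugt1a9 followed with 17.6% ± 6.79 in shTbl1xr1 and 14.8% ± 7.08 in shNC, where its share was lowest, 5.76%, in shNC 3. Ugt1a6a held 11.2% ± 2.35 in shTbl1xr1 and 13.5% ± 1.34 in shNC, and Ugt1a7c 0.638% ± 0.116 in shTbl1xr1 and 0.487% ± 0.143 in shNC. For each of the 9 genes the shares of the groups overlapped.

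**Figure D2:**
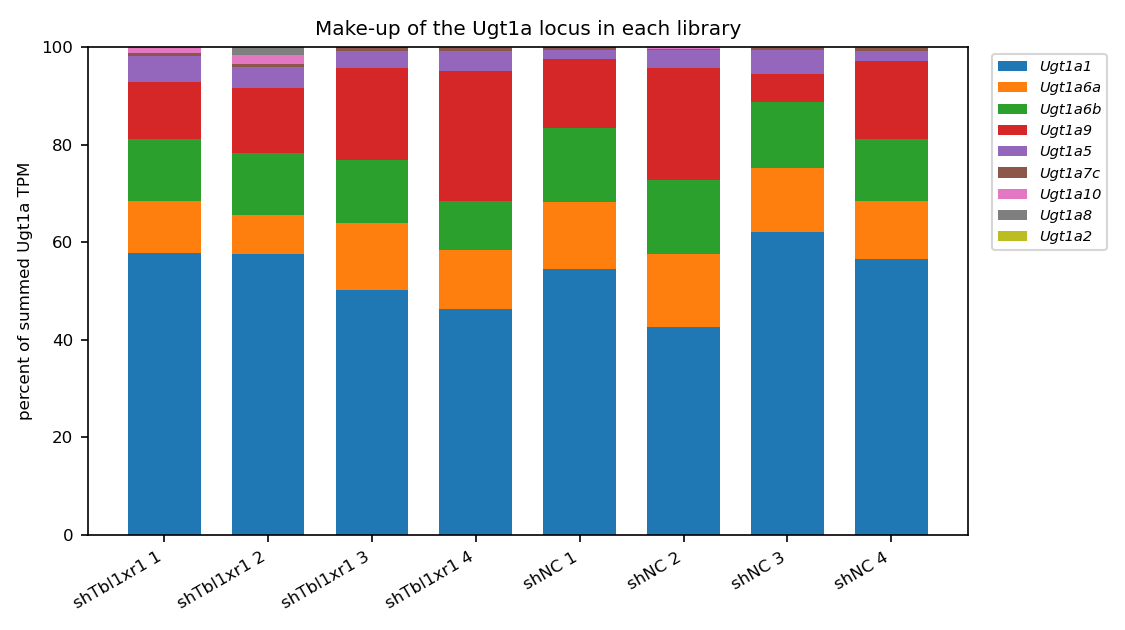
Share of each of the 9 annotated Ugt1a genes in the summed Ugt1a TPM of each library, in percent, with the 4 shTbl1xr1 libraries left of the 4 shNC libraries. Ugt1a1 takes 42.6% to 62.2% in every library, and Ugt1a8 appears in shTbl1xr1 2 alone.

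Ugt2b5 was the highest of the 10 per length. It had 1010, 1188, 461 and 676 CPM in shTbl1xr1 1 to 4, against 610, 407, 549 and 534 CPM in shNC 1 to 4. The libraries shTbl1xr1 1, 2 and 4 lay above the shNC range and shTbl1xr1 3 within it. On the log2 scale the fold change was 0.67 (SE 0.30, 95% interval -0.01 to 1.35, edgeR adjusted p = 0.426), and 0.11 (SE 0.22) without shTbl1xr1 1 and 2.

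Ugt2b1, whose rat relative conjugates bisphenol A, had 390, 688, 181 and 413 CPM in shTbl1xr1 1 to 4, against 290, 207, 157 and 292 CPM in shNC 1 to 4. Again shTbl1xr1 3 alone fell within the shNC range. The log2 fold change was 0.82 (SE 0.38, 95% interval -0.03 to 1.67, edgeR adjusted p = 0.426), and 0.32 (SE 0.36) without shTbl1xr1 1 and 2.

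Ugt2b35, which shares no 100-base window with another gene, had 351, 369, 195 and 287 CPM in shTbl1xr1 1 to 4, against 201, 204, 160 and 197 CPM in shNC 1 to 4. The library shTbl1xr1 3 lay just below the highest 3 shNC libraries and kept the groups from separating. In edgeR the log2 fold change was 0.66 (SE 0.22, 95% interval 0.16 to 1.16, unadjusted p = 0.0154) with an edgeR adjusted p of 0.373, and 0.34 (SE 0.19) without shTbl1xr1 1 and 2.

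Ugt2b36 shares no window either, and had 576, 716, 356 and 496 CPM in shTbl1xr1 1 to 4, against 450, 347, 374 and 436 CPM in shNC 1 to 4. The libraries shTbl1xr1 1, 2 and 4 lay above every shNC library. Its log2 fold change was 0.42 (SE 0.24, 95% interval -0.12 to 0.95, edgeR adjusted p = 0.477), and 0.08 (SE 0.19) without shTbl1xr1 1 and 2.

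Ugt2b34 had 435, 519, 322 and 581 CPM in shTbl1xr1 1 to 4, against 401, 379, 414 and 362 CPM in shNC 1 to 4. The shNC libraries lay close together, and the shTbl1xr1 libraries spread to both sides of them. The fold change was, on the log2 scale, 0.25 (SE 0.21, 95% interval -0.22 to 0.73, edgeR adjusted p = 0.602), and -0.06 with libraries scaled by size alone.

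Ugt2a3, whose human relative UGT2A3 conjugates bile acids, was the 1 listed gene with a negative fold change. It had 132, 154, 102 and 162 CPM in shTbl1xr1 1 to 4, against 178, 138, 94.9 and 171 CPM in shNC 1 to 4, and the shTbl1xr1 libraries lay within the shNC range. On the log2 scale the fold change was -0.08 (SE 0.24, 95% interval -0.61 to 0.45, edgeR adjusted p = 0.897), and leaving out 1 library at a time moved it between -0.24 and 0.04.

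The sum over the 7 annotated Ugt2b genes was 2788, 3552, 1530 and 2517 CPM in shTbl1xr1 1 to 4, a mean of 2597 ± 835 CPM (SD, n = 4). In shNC 1 to 4 it was 1973, 1558, 1663 and 1828 CPM, a mean of 1755 ± 183 CPM (SD, n = 4). The spread was wider in shTbl1xr1, and shTbl1xr1 3 lay below every shNC library. The log2 fold change of the sum was 0.56 (SE 0.28, 95% interval -0.07 to 1.20), and 0.20 (SE 0.23) without shTbl1xr1 1 and 2.

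**Figure D3:**
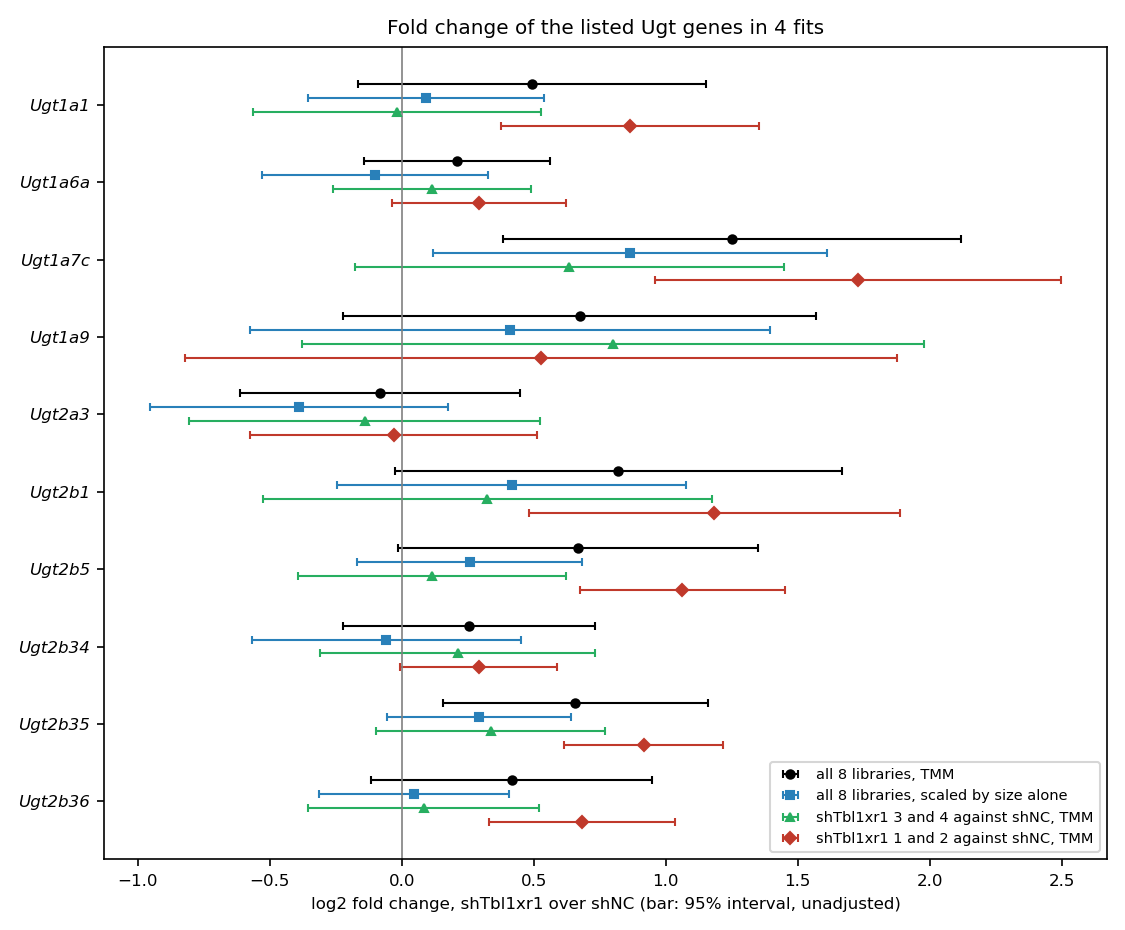
Log2 fold change, shTbl1xr1 over shNC, of each listed gene in 4 edgeR fits: all 8 libraries with TMM scaling, all 8 scaled by size alone, shTbl1xr1 3 and 4 against shNC, and shTbl1xr1 1 and 2 against shNC. Bars are unadjusted 95% intervals. With all 8 libraries and TMM, 8 of the 10 intervals include 0.

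The values of the listed genes differed between the shTbl1xr1 libraries. Relative to the shNC mean of each gene, the median log2 difference of the 10 genes was 0.64, 0.94, -0.15 and 0.48 in shTbl1xr1 1 to 4. The library shTbl1xr1 3 was the lowest of the 4 shTbl1xr1 libraries for 9 of the 10 genes, with Ugt1a7c as the exception. Both shallower libraries, shTbl1xr1 1 and 2, lay above every shNC library for 8 listed genes (all but Ugt1a9 and Ugt2a3), against 29.2% of all genes. Both deeper libraries, shTbl1xr1 3 and 4, did so for 1 listed gene, Ugt1a7c, against 10.6% of all genes.

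When the 2 shallower shTbl1xr1 libraries alone were set against shNC, 6 of the 10 genes were called higher and 0 lower by edgeR, where 21.5% of all genes were called higher and 21.1% lower. The 6 were Ugt1a7c (log2 fold change 1.73, adjusted p = 0.00398), Ugt2b1 (1.18, 0.0164), Ugt2b5 (1.06, 0.00152), Ugt2b35 (0.92, 0.000907), Ugt1a1 (0.87, 0.0118) and Ugt2b36 (0.68, 0.00772). These 2 libraries, grouped for their low depth, also differed little from each other. Their chi-square was 21.9 per gene, against 181 to 265 for other shTbl1xr1 pairs, a measure that also falls with depth. The p-values rest on this small spread and describe these libraries only. With the 2 deeper libraries alone, edgeR called 0 of the 10, and 0 had an unadjusted p under 0.05, where 0.0478% of all genes were called higher and 0 lower. Of the 10 fold changes, 8 were positive there, against 50.4% of all genes, and their median was 0.16. The difference between the 2 pairs of libraries was not itself tested.

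Other measures moved with these libraries. Summed markers of macrophages were 229 and 246 CPM in shTbl1xr1 1 and 2 and 509 and 576 CPM in shTbl1xr1 3 and 4, against 461 to 755 CPM in shNC. Those of endothelial cells were 124 and 109 CPM in shTbl1xr1 1 and 2 and 222 and 216 CPM in shTbl1xr1 3 and 4, against 192 to 220 CPM in shNC. Those of stellate cells were 112 and 104 CPM in shTbl1xr1 1 and 2 and 484 and 253 CPM in shTbl1xr1 3 and 4, against 225 to 418 CPM in shNC. Summed lymphocyte markers were 2.25 and 2.76 CPM in shTbl1xr1 1 and 2 and 10.6 and 10.7 CPM in shTbl1xr1 3 and 4, against 9.57 to 12.6 CPM in shNC. Those of cholangiocytes were 37.2 to 237 CPM in shTbl1xr1 and 31.8 to 118 CPM in shNC, and those of red blood cells 274 to 617 CPM in shTbl1xr1 and 314 to 874 CPM in shNC. No marker of the 7 lists was at 0 in all libraries. Of the 41 markers tested, edgeR and limma-voom called 0. At an unadjusted edgeR p under 0.05, 3 were higher and 2 lower, against 1099 and 516 of all 13908 genes. DESeq2 called 1 higher and 1 lower, against 1.59% and 0.262% of all genes. The part of these shifts, of depth and of the mitochondrial share in the Ugt values was not tested. Nor was that of the Tbl1xr1 level, 2.38 and 2.07 CPM in shTbl1xr1 1 and 2 against 9.24 and 15.9 CPM in shTbl1xr1 3 and 4. In whole liver, fewer cells of a type and less RNA per cell cannot be told apart.

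Per transcript length, the listed genes covered a wide range, and their order is given here in shNC livers. Ugt2b5 averaged 436 ± 81.0 TPM in shTbl1xr1 and 415 ± 62.9 TPM in shNC (SD, n = 4 each), and Ugt2b36 averaged 307 ± 92.9 TPM in shTbl1xr1 and 336 ± 32.1 TPM in shNC. Ugt2b34 had 158 ± 82.0 TPM in shTbl1xr1 and 178 ± 16.3 TPM in shNC. Ugt1a1 had 157 ± 22.8 TPM in shTbl1xr1 and 167 ± 38.3 TPM in shNC. Ugt1a1 was thus the highest of the listed Ugt1a genes and the fourth of the 10.

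Ugt2b1 had 153 ± 62.1 TPM in shTbl1xr1 and 129 ± 32.1 TPM in shNC, and Ugt2a3 69.6 ± 33.1 TPM in shTbl1xr1 and 98.5 ± 22.0 TPM in shNC. Ugt2b35 had 86.2 ± 25.4 TPM in shTbl1xr1 and 78.2 ± 6.74 TPM in shNC. Ugt1a9 had 57.1 ± 37.1 TPM in shTbl1xr1 and 45.5 ± 20.7 TPM in shNC, Ugt1a6a 34.4 ± 13.5 TPM in shTbl1xr1 and 41.2 ± 3.65 TPM in shNC, and Ugt1a7c 1.86 ± 0.162 TPM in shTbl1xr1 and 1.54 ± 0.617 TPM in shNC. Within shNC, neighbours in this order had ranges that did not overlap at 3 places: between Ugt2b36 and Ugt2b34, between Ugt2b35 and Ugt1a9, and between Ugt1a6a and Ugt1a7c. All other neighbours overlapped. Among all 55401 genes in shNC, Ugt2b5 ranked 327 by mean TPM and Ugt1a7c 11208.

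The fold changes depended on this scale, which differs from CPM in more than length, as the TPM values carry no TMM correction. The length was the same in all 8 libraries for Ugt2b5 (1858 bases) and Ugt1a1 (2224 bases). The part of length and of the TMM correction in the change was not tested. In TPM the groups overlapped for 10 of 10 genes, and 5 of the 10 log2 fold changes on the log2(TPM + 1) scale were positive, with a median of -0.00043 against -0.34 over all genes. Relative to the median of all genes, which takes up most of a change of scale, 9 of 10 were still higher. The 10 genes summed to 1140, 1241, 1369 and 2090 TPM in shTbl1xr1 1 to 4, against 1539, 1303, 1463 and 1655 TPM in shNC 1 to 4. The shallower shTbl1xr1 libraries, high in CPM, were thus the lowest in TPM. Both lay below every shNC library in TPM for 4 of the 10 genes. The listed genes made up 85.2% to 90.0% of the summed TPM of all annotated Ugt genes in every library.

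**Figure D4:**
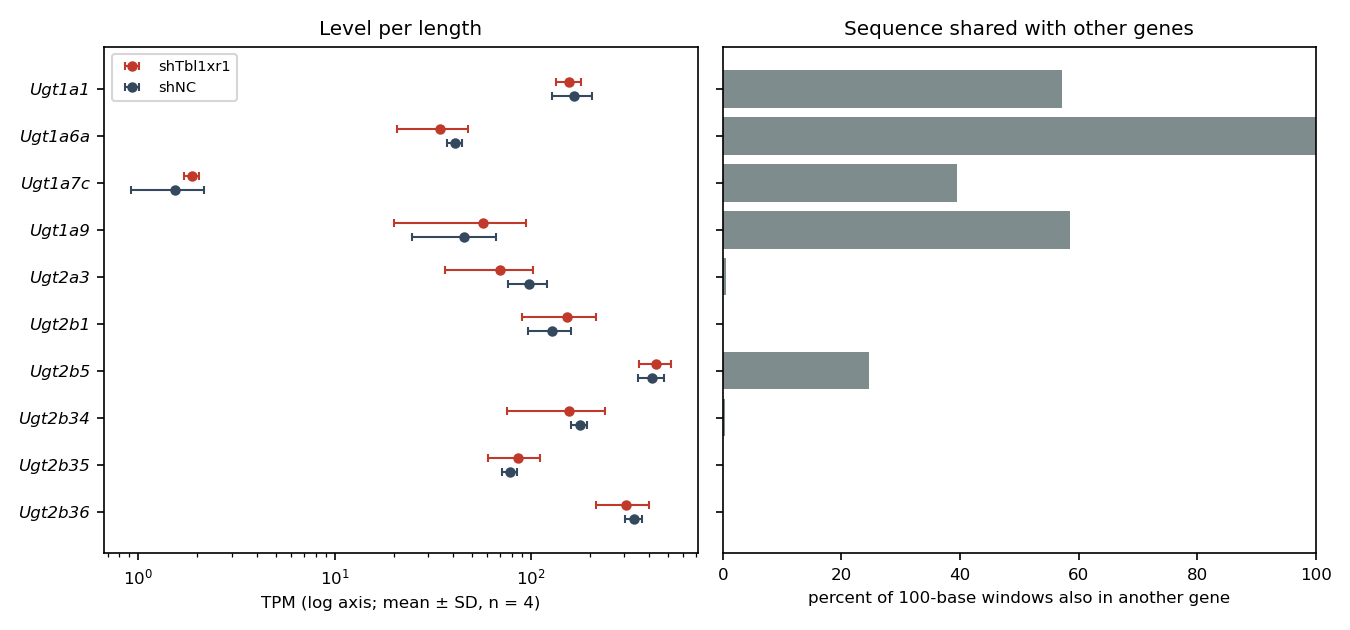
Left, mean TPM of each listed gene on a log axis, with SD (n = 4), in shTbl1xr1 above shNC. Right, percent of the 100-base windows of its main transcript that also occur in another gene. Means in shNC run between 1.54 and 415 TPM, and the Ugt1a genes share 39.5% to 100% of their windows.

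Of the 12 annotated Ugt genes that were not listed, 7 passed the filter, and edgeR called 0 of the 7. At an unadjusted edgeR p under 0.05, 4 were higher, as were 7.9% of all genes. All 7 log2 fold changes were positive, against 50.6% of all genes, with a median of 1.09. With libraries scaled by size alone 4 were positive, against 23.5% of all genes. The count without shTbl1xr1 1 and 2 was 3, against 50.4% of all genes. Ugt2b37 had 7.39, 18.1, 4.22 and 25.9 CPM in shTbl1xr1 1 to 4, against 5.42, 2.68, 1.49 and 2.42 CPM in shNC 1 to 4. The library shTbl1xr1 3 fell within the shNC range. Its log2 fold change was 2.22 (SE 0.59, edgeR adjusted p = 0.292), it was 2.33 (SE 0.68) without shTbl1xr1 1 and 2, and DESeq2 called it higher (adjusted p = 0.00843). Ugt2b37 also took a larger share of all Ugt TPM in every shTbl1xr1 library, 0.435% ± 0.305 in shTbl1xr1 and 0.131% ± 0.0606 in shNC (SD, n = 4 each).

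Ugt1a10 had 8.76 and 16.3 CPM in shTbl1xr1 1 and 2 but 0.161 and 1.14 CPM in shTbl1xr1 3 and 4, against 0.466, 1.01, 0.664 and 0.851 CPM in shNC 1 to 4. Its log2 fold change of 3.05 (SE 1.07, edgeR adjusted p = 0.382) rested on the 2 shallower libraries and was -0.18 (SE 0.67) without them, and its value shares the common exons described above. Ugt2b38, which shares windows with Ugt2b5, had a log2 fold change of 1.52 (SE 0.55, edgeR adjusted p = 0.393), and Ugt1a5 one of 1.09 (SE 0.33, adjusted p = 0.331). Without shTbl1xr1 1 and 2 they were 1.25 (SE 0.61) for Ugt2b38 and 0.57 (SE 0.31) for Ugt1a5. The values were 0.29 for Ugt1a6b, 0.17 for Ugt3a2 and 0.09 for Ugt3a1, and all 3 were negative with libraries scaled by size alone and without shTbl1xr1 1 and 2. The enzymes of human UGT3A1 and UGT3A2 use other sugars in place of glucuronic acid. Ugt3a1 made up 1.79% ± 0.404 of all Ugt TPM in shTbl1xr1 and 2.76% ± 0.117 in shNC, and Ugt3a2 5.65% ± 0.862 in shTbl1xr1 and 7.17% ± 0.555 in shNC (SD, n = 4 each). For both, each shTbl1xr1 library lay below every shNC library in this share, while their groups overlapped in CPM. How often such shares separate among other genes was not counted. Of the 5 that failed the filter, Ugt2a1 and Ugt2a2 had 0 counts in all 8 libraries, Ugt1a2 and Ugt8a had at most 20 counts in any library, and Ugt1a8 had 109 counts in shTbl1xr1 2 and 0 in the other seven.

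The genes around the reaction were read from the same fit in 7 further lists. Over all 8 lists, the other Ugt genes included, edgeR and limma-voom called 0 of 80 tested genes. DESeq2 called 6 higher and 0 lower, against 1.59% and 0.262% of all genes. At an unadjusted edgeR p under 0.05, 15 were higher and 1 was lower, against 1099 and 516 of all 13908 genes. Fold changes were positive for 50.6% of all genes, for 23.5% with size scaling and for 50.4% without shTbl1xr1 1 and 2. Of 11 genes of UDP-glucuronic acid supply and transport, which include Uxs1 and the nucleoside diphosphatases Entpd5 and Cant1, 8 had positive fold changes (median 0.17). The count was 1 with libraries scaled by size alone and 7 without shTbl1xr1 1 and 2. Ugdh, the dehydrogenase that makes UDP-glucuronic acid from UDP-glucose, had 309, 320, 193 and 312 CPM in shTbl1xr1 1 to 4, against 148, 171, 161 and 150 CPM in shNC 1 to 4. All 4 shTbl1xr1 libraries lay above every shNC library, as in 3.88% of all genes. The log2 fold change was 0.85 (SE 0.20, edgeR adjusted p = 0.234), it was 0.68 without shTbl1xr1 1 and 2 and 0.51 with size scaling, and DESeq2 called it higher (adjusted p = 0.00302). Uxs1, which turns UDP-glucuronic acid into UDP-xylose and was chosen after its values were seen, averaged 11.9 ± 1.31 CPM in shTbl1xr1 and 17.0 ± 1.39 CPM in shNC (SD, n = 4 each). Its groups did not overlap, as in 3.37% of all genes in the lower direction, and its edgeR adjusted p was 0.327.

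Of 12 genes of heme and bilirubin handling, which take in heme synthesis and breakdown, bilirubin uptake and glutathione transferases of the cytosol, 7 were positive (median 0.04). The count was 3 with size scaling and 6 without shTbl1xr1 1 and 2. Gstm1, one of these transferases, had 2702, 3398, 2109 and 1292 CPM in shTbl1xr1 1 to 4, against 770, 498, 603 and 760 CPM in shNC 1 to 4. Its groups did not overlap, as in 3.88% of all genes in this direction. The log2 fold change of Gstm1 was 1.85 (SE 0.33, edgeR adjusted p = 0.127), and DESeq2 called it higher (adjusted p = 1.89e-06). DESeq2 also called Gsta1, named after its values were seen, with an adjusted p of 0.000479. Both belong to families of similar genes, so their values may depend on how shared fragments were divided, which was not measured for them.

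Of 6 exporters of glucuronides, 5 were positive (median 0.26), and the smallest p was that of Abcg2, an efflux pump of the canalicular membrane, at 0.25 (SE 0.20, edgeR adjusted p = 0.591) and -0.02 without shTbl1xr1 1 and 2. Of 3 enzymes of glucuronide hydrolysis, 3 were positive (median 0.21), and Ces1e, also known as egasyn, which holds beta-glucuronidase in the endoplasmic reticulum, had 0.53 (SE 0.36, adjusted p = 0.532) and 0.07 without shTbl1xr1 1 and 2. Of 14 transcription factors and partners known to act on Ugt genes, 5 were positive (median -0.12), 2 with libraries scaled by size alone and 9 without shTbl1xr1 1 and 2. Foxa2, a liver forkhead factor, had the smallest p among these, with 0.66 (SE 0.31, edgeR adjusted p = 0.428), and 0.15 without shTbl1xr1 1 and 2. DESeq2 called 0 in these 3 lists.

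Of 14 targets of those factors in other families, 13 were tested and 9 were positive (median 0.11), or 6 without shTbl1xr1 1 and 2. Cyp2c29, a cytochrome P450 induced through the receptor CAR and one of a family of close copies, had 2181, 1899, 580 and 1049 CPM in shTbl1xr1 1 to 4, against 483, 487, 429 and 550 CPM in shNC 1 to 4. Its groups did not overlap, as in 3.88% of all genes in this direction. Its log2 fold change was 1.55 (SE 0.38, edgeR adjusted p = 0.267), and DESeq2 called it higher (adjusted p = 0.00495). Without shTbl1xr1 1 and 2 the log2 fold change of Cyp2c29 was 0.74. Of 14 enzymes that conjugate by other routes (sulfate, methyl, acetyl or amino acid groups), 14 were positive (median 0.50), 9 with libraries scaled by size alone and 8 without shTbl1xr1 1 and 2. Sult1a1, a phenol sulfotransferase that shares substrates with the Ugt1a enzymes, averaged 410 ± 32.9 CPM in shTbl1xr1 and 251 ± 39.4 CPM in shNC (SD, n = 4 each). Its groups did not overlap, as in 3.88% of all genes in this direction. For Sult1a1 the log2 fold change was 0.71 (SE 0.18, edgeR adjusted p = 0.276), and DESeq2 called it higher (adjusted p = 0.00267).

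**Figure D5:**
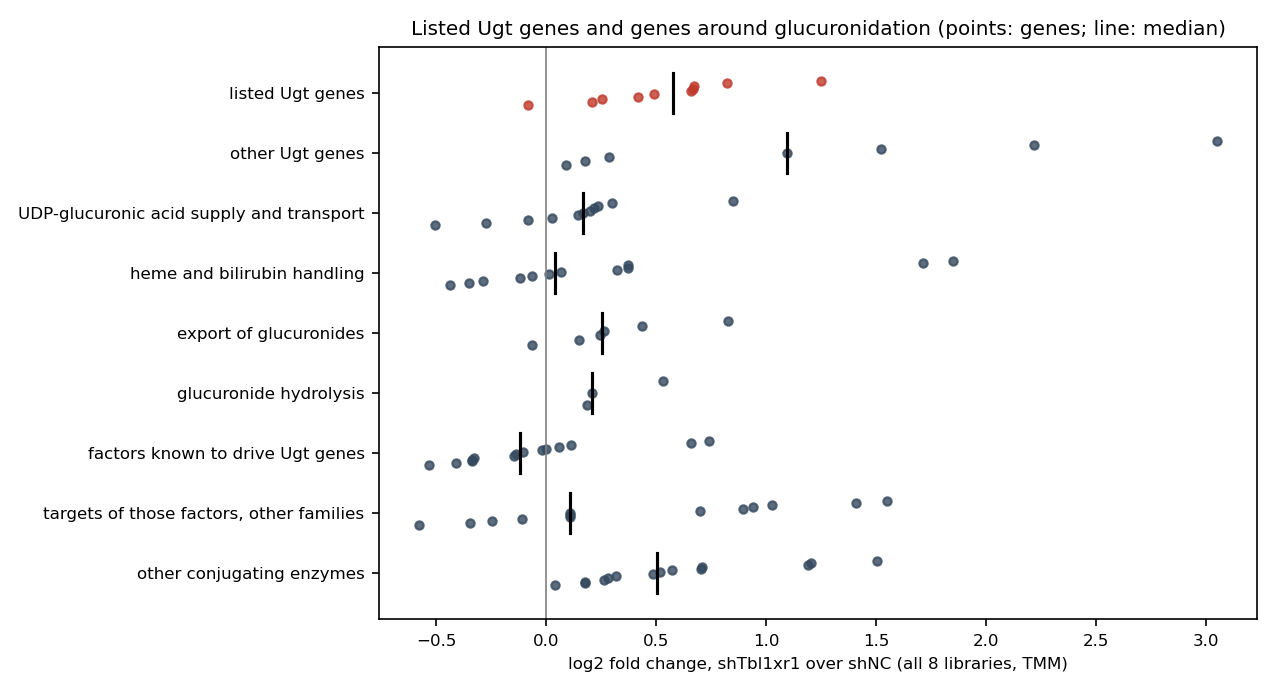
Log2 fold change, shTbl1xr1 over shNC, from the edgeR fit with all 8 libraries, for each tested gene of the listed Ugt genes and of 8 lists around glucuronidation. Points are genes and vertical lines are list medians. The medians are 0.58 for the listed Ugt genes, 0.50 for other conjugating enzymes and -0.12 for the factors.

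The gene profiles most like that of Ugt1a7c, the listed gene with the smallest p, were sought among 9220 tested genes with a mean of at least 5 CPM, as the root mean square difference of log2 CPM from the shNC mean over the 8 libraries. The 5 closest were Macrod1 (0.231), Bdh2 (0.262), Lipc (0.274), Gstm6 (0.289) and Gpx1 (0.305). Lipc, hepatic lipase, averaged 94.0 CPM in shTbl1xr1 and 39.5 CPM in shNC, with a log2 fold change of 1.25, and Gpx1, a glutathione peroxidase, averaged 3210 CPM in shTbl1xr1 and 1449 CPM in shNC, with 1.15. No listed gene was among the 5.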

How the data were processed

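For each of the 8 libraries the authors deposited 1 table of 55401 genes. Per the file headers it holds an expected count, which is an estimated count of fragments per gene, a TPM value and the mean transcript length of the gene. STAR, RSEM and DESeq2 1.30.1 are in the submitters' processing notes, with the build mm10 (GRCm38). Their options, and the strand setting and annotation release, were not stated in them. For a fragment that aligns to several genes, RSEM divides it among them.

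Expected counts were rounded to whole numbers and filtered by filterByExpr, which left 13908 genes, and TMM scaling followed (edgeR 4.0.16, R 4.3.3). The test was edgeR's robust quasi-likelihood F test without covariates. Benjamini-Hochberg adjustment covered every gene tested, and adjusted p under 0.05 was called. Intervals are unadjusted. CPM levels are TMM-scaled, and log2 levels used a prior count of 2. The deposited TPM values, without TMM correction, were used for levels per length and, as log2(TPM + 1), for a limma-trend alternative. The permutation test of Tbl1xr1 used log2(CPM + 1) and 70 arrangements.

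Alternatives used other scalings, no filter, DESeq2 1.42.0, limma-voom in limma 3.58.1, a replicate block, 1 surrogate variable from sva 3.50.0, each library left out, and the deeper or shallower shTbl1xr1 libraries alone. The procedure was tested on simulated data. No 2 libraries held the same values, and library pairs within a group differed by a chi-square of 21.9 to 265 per gene, so each was counted once.

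Symbols and transcripts came from GENCODE mouse release 21, and upstream sequences from RefSeq on GRCm38.p6. Of 55401 identifiers, 55141 had a symbol. Windows of 100 bases were compared between transcripts of all genes.

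The members, gene lists and tests were chosen with earlier results of these data known. All listed genes are named with every library, the other Ugt genes where they passed the filter, and from each further list at most 2 called genes in each direction, or, with none called, the gene of smallest p.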

Additional observations from a re-analysis of the deposited data

Results flagged for a closer look

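In shNC, Ugt2b35 had 160 CPM in replicate 3 (159.78), below the 201, 204 and 197 CPM of replicates 1, 2 and 4, and this gap took up most of the range of the group. The listed genes, the other tested Ugt genes and Tbl1xr1 gave 36 groups of 4 libraries, of which this was the 1 with a library that far from the others. Chance alone is expected to give about 5% of such groups.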

How the results depend on the processing

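Over all genes, the counts called higher and lower were 6 and 1 with all libraries. They were 3 higher with scaling by library size alone, 12 higher without a filter, 237 higher and 39 lower with DESeq2, and 0 lower with limma-voom. They were 40 higher and 4 lower with 1 surrogate variable, 3073 higher and 3021 lower with shTbl1xr1 1 and 2 alone, 0 lower with shTbl1xr1 3 and 4 alone, and 1 higher and 0 lower in TPM. Leaving out 1 library at a time gave 0 to 28 higher and 0 to 6 lower. Without shNC 1, 2 or 4, edgeR called 0 genes, although an unadjusted p under 0.05 was reached by 844, 631 and 644 higher genes and by 372, 297 and 292 lower ones. Of the listed genes, 6 were called with shTbl1xr1 1 and 2 alone and 0 in every other fit run, each of the 8 with 1 library left out included. The log2 fold change of Tbl1xr1 was called with DESeq2 (-2.13), 1 surrogate variable (-1.56) and shTbl1xr1 1 and 2 alone (-3.88), and ranged from -2.71 to -1.79 with 1 library left out. The Ugt1a sum moved to 0.14 with size scaling and 0.16 with shTbl1xr1 3 and 4 alone, and the Ugt2b sum to 0.19 with size scaling. With 1 library left out the sums ranged from 0.34 to 0.65 (Ugt1a) and 0.38 to 0.75 (Ugt2b). The cause of these changes was not tested.

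Log2 fold changes turned negative as follows. With size scaling they were -0.10 (Ugt1a6a), -0.059 (Ugt2b34), -0.094 (Ugt1a6b), -0.29 (Ugt3a1), -0.21 (Ugt3a2) and -0.10 (Abcg2). With shTbl1xr1 3 and 4 alone they were -0.017 (Ugt1a1), -0.18 (Ugt1a10), -0.15 (Ugt1a6b), -0.28 (Ugt3a1), -0.26 (Ugt3a2) and -0.024 (Abcg2). In TPM they were -0.33 (Ugt1a6a), -0.068 (Ugt1a1), -0.29 (Ugt2b34), -0.17 (Ugt2b36), -0.26 (Ugt1a6b), -0.71 (Ugt3a1), -0.44 (Ugt3a2), -0.41 (Abcg2), -0.020 (Ces1e) and -0.043 (Foxa2). With 1 surrogate variable they were -0.11 (Ugt1a6b), -0.23 (Ugt3a1) and -0.20 (Ugt3a2). Ugt3a1 also gave -0.0037 with upper quartile scaling, -0.016 with limma-voom and -0.012 with the replicate block. With 1 library left out, Ugt2a3 ranged from -0.24 to 0.037 and Ugt3a1 from -0.072 to 0.34.

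The replicate block called 4 genes higher, 1 lower and 0 listed genes. Libraries of the same number correlated by 0.379, -0.0737, 0.305 and 0.12 in their deviations from the group means, so the numbers were not treated as pairs. Depth limits Ugt1a7c and Ugt1a10 most, the lowest of the named Ugt genes with counts in every library.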
